A study of Homo sapiens with 6 samples.

Results

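The genes described here encode enzymes and complex subunits that write, read or remove DNA methylation and histone modifications, with the ATP-dependent remodellers of the SWI/SNF complex. They were chosen by name as a list of 51 genes in 10 functional roles, and all 51 were found among the 56505 rows of the count table. The labels give MDA-MB-468, a triple-negative, basal-like human breast cancer line, as the source of the RNA, but 2 genes described below do not match that line in shCK5. By the labels, 3 libraries carried a short hairpin RNA against cytokeratin 5 (titled shCK5-22, here shCK5). Another 3 carried a control hairpin from the same pLK0 vector (shControl). Cytokeratin 5, encoded by KRT5, is a keratin typical of the basal epithelial layer. The labels give Dulbecco's medium with fetal bovine serum and no treatment for all 6 samples. A single knockdown hairpin was sequenced, and the labels do not say whether the cells were clones or whether replicates were separate cultures. The p-values therefore describe the spread among 3 libraries a group, and that spread may be technical.

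DNA methylation at CpG sites is laid down by DNMT3A and DNMT3B and copied after replication by DNMT1, which UHRF1 brings to hemimethylated DNA; the TET dioxygenases oxidise the mark and start its removal. Polycomb repressive complex 2 methylates lysine 27 of histone H3, and Polycomb repressive complex 1 ubiquitinates histone H2A, and both keep developmental genes silent. Methylation of histone H3 at lysines 4, 36 and 79 accompanies transcription, methylation at lysine 9 accompanies heterochromatin, and acetyltransferases, deacetylases, demethylases and SWI/SNF remodellers set the balance between open and closed chromatin.

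Total gene counts lay between 75460940 and 83594772 in the shCK5 libraries and between 68810882 and 75529699 in the shControl libraries. KRT5 itself averaged 16.4 ± 0.845 CPM (counts relative to library size, with TMM factors) in shCK5 and 2044 ± 23.3 CPM in shControl (SD, n = 3 each). The identity of the cells rests on the labels alone, and under the label shCK5 the levels of RB1 and SMAD4 do not match it. These genes, which are known to be deleted in MDA-MB-468, averaged 101 ± 2.16 and 16.9 ± 0.547 CPM under the label shCK5. Under the label shControl they averaged 2.00 ± 0.136 and 0.235 ± 0.138 CPM. The 6 epithelial and basal markers of the line that were examined (KRT5, KRT8, KRT18, EPCAM, CDH1 and EGFR) were all lower in shCK5, with summed levels of 1860 to 1875 CPM against 8103 to 8300 CPM. Markers of other cell types were low in both groups but not alike. The 5 fibroblast markers summed to 12.1 to 14.1 CPM in shCK5 and 13.3 to 13.9 CPM in shControl, with PDGFRB 9.11-fold higher and COL1A1 1.48-fold lower in shCK5. The 5 endothelial markers summed to 5.98 to 6.94 CPM in shCK5 and 4.46 to 6.37 CPM in shControl, with PECAM1 and KDR higher and CDH5, VWF and TEK lower in shCK5. The leukocyte markers CD14 and PTPRC were lower, at 0.798 ± 0.217 and 0.0623 ± 0.0322 CPM in shCK5 against 5.02 ± 0.676 and 0.697 ± 0.137 CPM in shControl. The part of these differences in the results below was not tested. In what follows, "rose" and "fell" describe the libraries labelled shCK5 relative to those labelled shControl, and a difference between the cells under these labels cannot be told apart from an effect of the hairpin.

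The de novo methyltransferase gene DNMT3A, TET1, CBX2 and NSD1 had the deepest decreases of the list, and UHRF1, BMI1, SUZ12 and HDAC9 the steepest increases. All 51 genes passed the filter on low counts, with at least 225 counts over the 6 libraries. With edgeR (quasi-likelihood, p-values adjusted over 19567 genes by Benjamini-Hochberg), 22 rose, 27 fell and 2 did not pass an adjusted p of 0.05. The 49 called members are 96.1% of the list, against 82.7% of all genes tested (40.9% higher and 41.7% lower). Among well expressed genes, those with a mean of at least 10 CPM (a level chosen after the values were seen), 46 of 48 members passed, or 95.8%, against 91.6% of such genes. The groups did not overlap in 49 of 51 members, against 84.2% of all genes. At least 2-fold differences were found for 16 members, 9 higher and 7 lower. That is 31.4% of the list against 44.0% of all genes (19.6% higher and 24.4% lower), and 29.2% against 31.2% at a mean of 10 CPM or more. The number of changed members was therefore close to that of other well expressed genes. The median log2 fold change, shCK5 minus shControl, was -0.18 over the members and -0.02 over all genes tested. At a mean of 10 CPM or more it was -0.22 over the members, of which 20 rose and 26 fell, and 0.15 over all such genes, of which 5018 rose and 3754 fell. With libraries scaled by their size alone, the median of all genes moved to -0.156, and with upper-quartile factors to -0.117. Changes of about 0.1 on the log2 scale therefore depend on the scaling, as do the 2-fold counts for members near that limit.

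**Figure D1:**
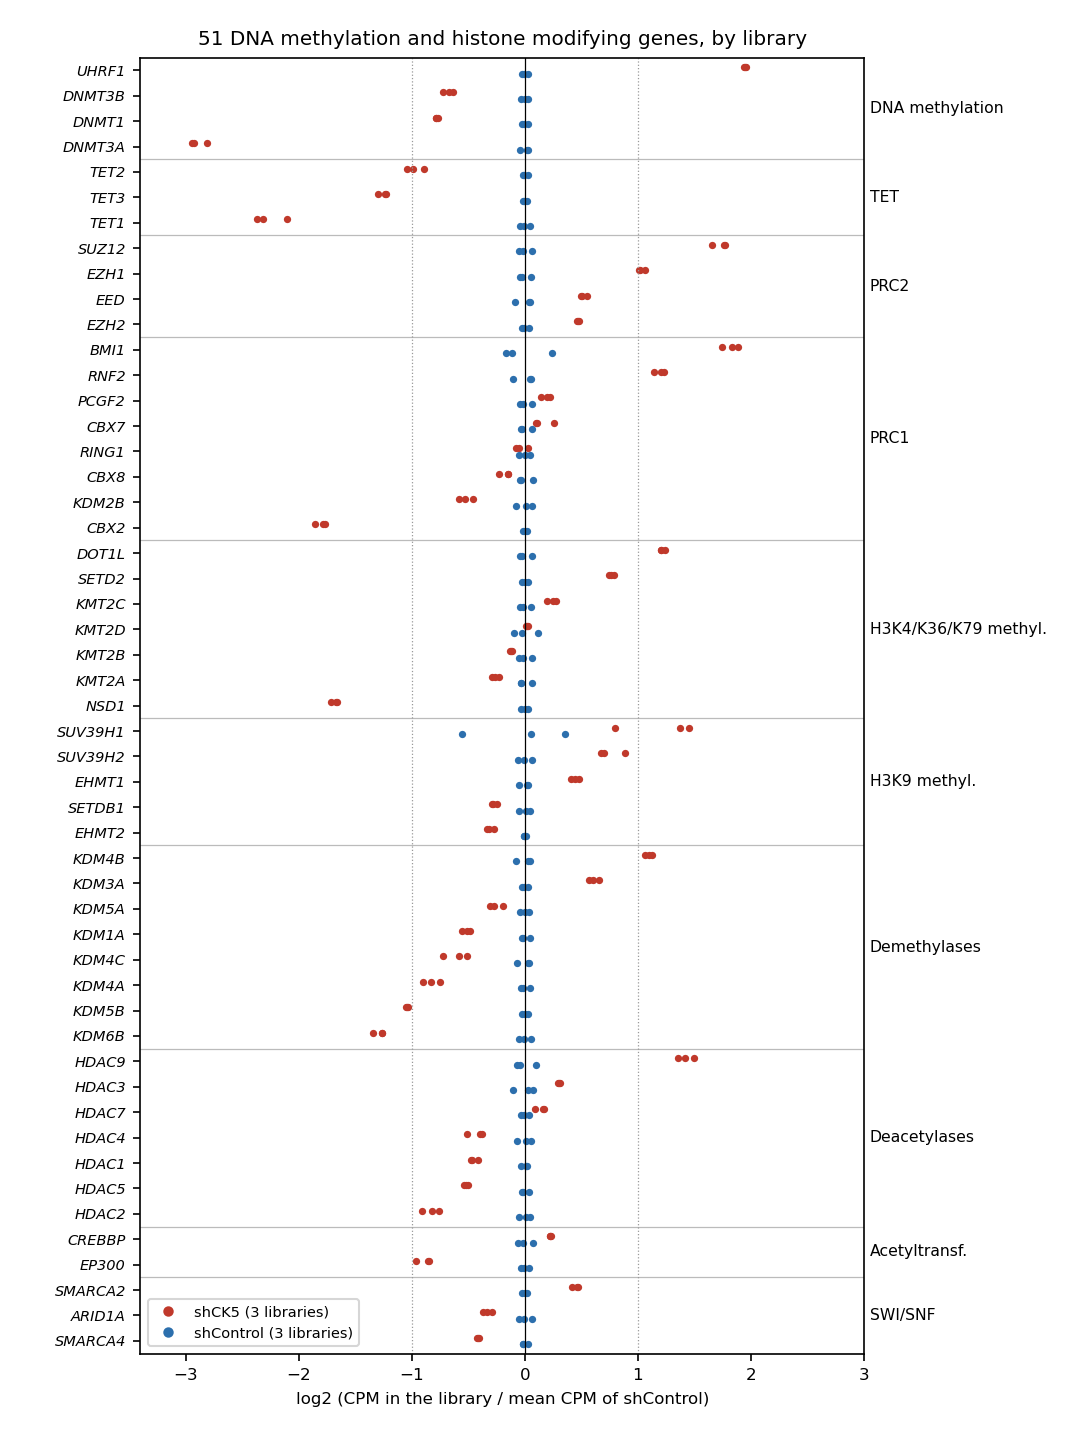
Level of each of the 51 genes in each library, as log2 of its CPM over the mean CPM of the 3 shControl libraries, with shCK5 libraries in red above shControl libraries in blue and genes ordered by fold change within their role. All 3 TET genes lie left of 0 and all 4 members of Polycomb repressive complex 2 lie right of 0 in shCK5, and dotted lines mark 2-fold differences.

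All 3 DNA methyltransferase genes fell, and UHRF1 rose. DNMT3A (ENSG00000119772.16, chromosome 2, 25227855 to 25342590, minus strand, GRCh38) had 15.1, 13.9 and 13.8 CPM in shCK5 against 107, 108 and 103 CPM in shControl. It was the most strongly reduced member, 7.42-fold lower (log2 fold change -2.89, SE 0.0414; edgeR adjusted p = 6.02e-27). Every shCK5 library lay far below every shControl library. DNMT3B (chromosome 20, 32762385 to 32809356) fell less, to 18.5 ± 0.574 CPM in shCK5 against 29.6 ± 0.575 CPM in shControl (log2 fold change -0.68, SE 0.0473; edgeR adjusted p = 1.40e-12). The maintenance enzyme gene DNMT1 (ENSG00000130816.15, chromosome 19, 10133345 to 10231286, minus strand) had 647, 640 and 640 CPM in shCK5 against 1125, 1085 and 1099 CPM in shControl (log2 fold change -0.78, SE 0.0248; edgeR adjusted p = 1.00e-19). The groups did not overlap. UHRF1 (ENSG00000276043.4, chromosome 19, 4903080 to 4962154, plus strand), the reader that recruits DNMT1 to newly replicated DNA, had 345, 344 and 342 CPM in shCK5 against 90.5, 88.7 and 87.7 CPM in shControl. UHRF1 was the most strongly increased member (log2 fold change 1.95, SE 0.0273; edgeR adjusted p = 3.72e-27), so the reader and the enzyme it recruits moved in opposite directions.

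Per length of annotated exon (RPKM, the CPM divided by exon length in kilobases), UHRF1 averaged 66.8 ± 0.368 and DNMT1 65.6 ± 0.411 RPKM in shCK5, whereas in shControl UHRF1 averaged 17.3 ± 0.280 and DNMT1 113 ± 2.07 RPKM. In shCK5 these were the highest levels per length of the list, and in shControl DNMT1 was highest and UHRF1 ranked 8 of 51. The lengths pool all annotated exons of a gene (5145 bases for UHRF1, 9796 for DNMT1), so levels compared between genes depend on them. In CPM, UHRF1 lay below DNMT1 and SMARCA4 in shCK5, at 344 against 642 and 353 CPM. Of the summed DNMT1, DNMT3A and DNMT3B transcripts per length, DNMT3A made up 1.68% ± 0.0784 in shCK5 and 6.90% ± 0.207 in shControl, while DNMT3B made up 5.65% ± 0.201 and 5.00% ± 0.172 (SD, n = 3 each). DNMT3B was thus the more abundant de novo enzyme transcript in shCK5, and DNMT3A in shControl. DNMT3L, a catalytically inactive partner of the de novo enzymes and no member of the list, was near its detection limit, at 0.255 ± 0.0204 CPM in shCK5 against 1.02 ± 0.104 CPM in shControl.

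The TET genes, whose products oxidise 5-methylcytosine, fell together. TET1 (ENSG00000138336.8, chromosome 10, 68560656 to 68694482, plus strand) had 2.32, 2.68 and 2.23 CPM in shCK5 against 11.5, 11.9 and 11.2 CPM in shControl (log2 fold change -2.26, SE 0.0913; edgeR adjusted p = 1.65e-17). TET3 (ENSG00000187605.15, chromosome 2, 73986404 to 74108176, plus strand) had 48.5, 51.1 and 50.7 CPM against 121, 118 and 119 CPM (log2 fold change -1.25, SE 0.0319; edgeR adjusted p = 9.16e-22). TET2 (chromosome 4, 105145875 to 105279816) averaged 20.4 ± 1.06 CPM in shCK5 and 40.1 ± 0.692 CPM in shControl (log2 fold change -0.97, SE 0.0456). No library of one group reached the range of the other for any of these genes. Summed per length, TET transcripts came to 5.58 ± 0.0869 RPKM in shCK5 and 13.4 ± 0.0925 RPKM in shControl, and TET3 made up most of them in both groups, 73.2% ± 1.36 and 72.6% ± 0.577.

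The 4 listed subunit genes of Polycomb repressive complex 2 rose, but other genes of the complex, outside the list, did not all do so. SUZ12 (ENSG00000178691.10, chromosome 17, 31937018 to 32001045, plus strand), a scaffold that the complex needs for stability, had 152, 141 and 153 CPM in shCK5 against 43.1, 46.9 and 44.4 CPM in shControl (log2 fold change 1.73, SE 0.0369; edgeR adjusted p = 2.36e-23). The row of its pseudogene SUZ12P1 stood at 15.8 ± 0.730 and 15.2 ± 0.657 CPM and did not pass the test. EZH1 (ENSG00000108799.12, chromosome 17, 42700275 to 42745049, minus strand), the catalytic subunit typical of resting cells, had 37.8, 36.4 and 36.5 CPM in shCK5 against 17.6, 17.8 and 18.8 CPM in shControl (log2 fold change 1.03, SE 0.0458; edgeR adjusted p = 1.19e-16). EZH2 (chromosome 7, 148807383 to 148884321, minus strand), the catalytic subunit typical of dividing cells, rose less, to 159 ± 0.845 CPM against 115 ± 2.40 CPM (log2 fold change 0.47, SE 0.0280; edgeR adjusted p = 6.03e-14). EED, which binds the methylated histone tail, averaged 45.0 ± 0.893 CPM in shCK5 and 31.4 ± 1.52 CPM in shControl (log2 fold change 0.52, SE 0.0418). EZH2 remained the major catalytic transcript per length, with 87.0% ± 0.197 of the EZH1 and EZH2 sum in shCK5 and 90.8% ± 0.344 in shControl. The listed subunits rose by different amounts, SUZ12 by 3.32-fold and EED and EZH2 by 1.43-fold and 1.38-fold. Genes of the complex outside the list are named here after their values were seen. The histone-binding core subunit gene RBBP4 fell to 123 ± 0.326 CPM in shCK5 against 210 ± 5.78 CPM in shControl (log2 fold change -0.77, SE 0.0282; edgeR adjusted p = 2.09e-18), while its paralog RBBP7 rose (1.15, SE 0.0289). Of the accessory subunit genes, PHF19, PHF1 and AEBP2 rose (1.61, 0.97 and 0.55), JARID2 fell (-0.15), and MTF2 did not pass (0.06, edgeR adjusted p = 0.232).

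The promoter windows of 6 members are shown. Those of UHRF1, SUZ12, EZH1, EZH2 and DNMT1 are the windows of the list that hold a word bound by E2F factors, which RB1 represses in the cell cycle, and that of DNMT3A is the window of the most strongly reduced member. RefSeq windows of 300 bases, from 250 bases before a gene's first listed start to 50 bases after it, were found for 47 of 51 members on GRCh38.p14; CBX2, CBX8, DOT1L and HDAC5 had none in the table used. Many genes have further starts that were not searched. The words searched, on both strands, were TTTGGCGC, TTTCGCGC, TTTGCCGC and TTTCCCGC, and a match is printed in capitals.
UHRF1 promoter, chr19:4909251-4909550, plus strand: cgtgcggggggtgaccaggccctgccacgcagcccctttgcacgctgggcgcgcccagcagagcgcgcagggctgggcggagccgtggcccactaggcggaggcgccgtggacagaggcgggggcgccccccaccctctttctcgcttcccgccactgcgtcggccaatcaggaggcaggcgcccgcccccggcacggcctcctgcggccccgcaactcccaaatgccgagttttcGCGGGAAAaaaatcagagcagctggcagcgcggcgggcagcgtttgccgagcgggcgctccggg
SUZ12 promoter, chr17:31936757-31937056, plus strand: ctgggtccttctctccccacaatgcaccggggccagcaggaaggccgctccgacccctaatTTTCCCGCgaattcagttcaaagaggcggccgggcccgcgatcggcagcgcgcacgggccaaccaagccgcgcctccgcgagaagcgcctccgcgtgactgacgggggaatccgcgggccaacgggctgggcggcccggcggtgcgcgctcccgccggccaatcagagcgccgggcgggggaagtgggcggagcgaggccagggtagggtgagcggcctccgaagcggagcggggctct
EZH1 promoter, chr17:42744991-42745290, minus strand: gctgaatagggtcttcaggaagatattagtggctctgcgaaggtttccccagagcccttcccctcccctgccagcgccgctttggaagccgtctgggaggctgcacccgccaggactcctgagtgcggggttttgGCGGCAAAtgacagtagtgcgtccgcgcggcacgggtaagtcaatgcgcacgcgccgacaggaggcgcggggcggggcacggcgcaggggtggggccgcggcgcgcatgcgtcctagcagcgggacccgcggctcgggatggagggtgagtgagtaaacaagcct
EZH2 promoter, chr7:148884242-148884541, minus strand: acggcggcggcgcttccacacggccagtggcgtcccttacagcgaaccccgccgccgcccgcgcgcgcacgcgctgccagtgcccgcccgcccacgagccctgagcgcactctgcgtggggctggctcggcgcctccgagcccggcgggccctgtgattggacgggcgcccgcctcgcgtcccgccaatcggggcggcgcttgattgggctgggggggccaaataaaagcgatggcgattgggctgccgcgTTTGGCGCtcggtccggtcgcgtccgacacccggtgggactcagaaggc
DNMT1 promoter, chr19:10194904-10195203, minus strand: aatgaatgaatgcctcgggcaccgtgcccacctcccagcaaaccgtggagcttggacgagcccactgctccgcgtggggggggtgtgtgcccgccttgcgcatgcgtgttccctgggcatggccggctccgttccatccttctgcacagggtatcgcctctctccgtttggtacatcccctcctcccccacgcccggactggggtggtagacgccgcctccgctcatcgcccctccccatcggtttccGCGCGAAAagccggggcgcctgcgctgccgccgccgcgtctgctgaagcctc
DNMT3A promoter, chr2:25342434-25342733, minus strand: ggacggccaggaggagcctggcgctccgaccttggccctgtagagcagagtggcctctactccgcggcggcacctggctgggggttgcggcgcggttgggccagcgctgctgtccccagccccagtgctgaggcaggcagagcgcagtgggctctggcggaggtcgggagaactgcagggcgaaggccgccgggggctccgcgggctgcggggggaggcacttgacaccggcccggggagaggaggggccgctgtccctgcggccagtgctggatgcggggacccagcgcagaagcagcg

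At least 1 of these words stood in the windows of 5 members, UHRF1, SUZ12, EZH1, EZH2 and DNMT1, and in none of the other 42. That is 10.6% of the members' windows, against 4.88% of the windows of 11528 tested genes and 3.33% of all 27305 windows. The sets also differed in base content, with a median share of G and C of 69.3%, 64.7% and 58.3%. The shares of windows with a word were not matched for this. A link between the words and the differences in level was not tested. The word of UHRF1 began 14 bases before the start, that of DNMT1 2 bases before it, those of EZH1 and SUZ12 115 and 189 bases before it, and that of EZH2 at base 2 after it. UHRF1, SUZ12, EZH1 and EZH2 rose and DNMT1 fell. The window of DNMT3A, the most strongly reduced member, held none of the words, and 26 CpG dinucleotides. Over the members, windows held a median of 30 CpG dinucleotides (2 to 56), against 25 in windows of tested genes. The median was 36 in the 21 windows of members that rose and 25.5 in the 24 windows of members that fell.

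Genes of Polycomb repressive complex 1 split by subunit. BMI1 (ENSG00000168283.13, chromosome 10, 22321211 to 22331484, plus strand), a RING-finger partner that stimulates the ubiquitin ligase, had 20.2, 19.0 and 21.0 CPM in shCK5 against 5.25, 6.72 and 5.06 CPM in shControl (log2 fold change 1.82, SE 0.0821; edgeR adjusted p = 1.71e-16). The read-through gene COMMD3-BMI1, which covers 23.3% of its exon length, held at most 0.125 CPM in any library. The row of COMMD3 was nearly empty as well, at most 0.126 CPM. How reads shared by overlapping genes were counted is not given, so these rows do not show whether read-through was absent or BMI1 counted in full. RNF2 (ENSG00000121481.10, chromosome 1, 185045364 to 185102608, plus strand), a catalytic subunit, had 33.1, 31.8 and 33.8 CPM against 13.4, 15.0 and 14.8 CPM (log2 fold change 1.19, SE 0.0521; edgeR adjusted p = 8.98e-17). Its paralog RING1 had 44.2, 46.8 and 43.3 CPM in shCK5 and 45.7, 44.3 and 47.4 CPM in shControl, with overlapping groups (log2 fold change -0.03, SE 0.0397; edgeR adjusted p = 0.449). Per length, RING1 made up 75.3% ± 1.31 of the RING1 and RNF2 sum in shCK5 and 87.7% ± 0.781 in shControl. Between the chromobox genes, whose products bind methylated lysine 27, the direction differed. CBX2 (ENSG00000173894.10, chromosome 17, 79778132 to 79787983, plus strand) had 27.8, 28.0 and 26.4 CPM in shCK5 against 96.7, 94.3 and 95.7 CPM in shControl (log2 fold change -1.80, SE 0.0356; edgeR adjusted p = 4.77e-24). Its neighbour CBX8 (chromosome 17, 79792132 to 79801683, minus strand) averaged 17.0 ± 0.554 and 19.2 ± 0.834 CPM (log2 fold change -0.18, SE 0.0544; edgeR adjusted p = 0.00483).

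CBX7 averaged 13.1 ± 0.863 CPM in shCK5 and 11.8 ± 0.443 CPM in shControl, a small difference that passed the test (log2 fold change 0.16, SE 0.0659; edgeR adjusted p = 0.0312). It was lost in 6 of 15 alternatives. It did not pass without shCK5 replicate 1 (log2 fold change 0.10) or without shControl replicate 2 or 3 (0.14 and 0.15), or under library size scaling (0.02). Per length, CBX2 made up 45.2% ± 1.34 of the summed CBX2, CBX7 and CBX8 transcripts in shCK5 and 73.1% ± 0.629 in shControl. PCGF2, a paralog of BMI1, averaged 65.2 ± 1.81 and 57.3 ± 2.19 CPM (log2 fold change 0.19, SE 0.0361), and the call was lost under library size scaling (0.05). Exons of CISD3 on the opposite strand cover 32.7% of its exon length, and CISD3 averaged 43.9 ± 1.42 CPM in shCK5 and 20.6 ± 0.189 CPM in shControl, so reads of these genes cannot be told apart without a stated strand setting. BMI1 made up 20.2% ± 1.12 of the BMI1 and PCGF2 sum per length in shCK5 and 7.52% ± 1.30 in shControl. KDM2B, which brings a variant form of the complex to CpG islands, fell to 32.6 ± 1.35 CPM against 46.7 ± 2.16 CPM (log2 fold change -0.52, SE 0.0431).

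Among methyltransferases of marks on transcribed chromatin, NSD1 fell, DOT1L and SETD2 rose, and the KMT2 genes differed little. NSD1 (ENSG00000165671.20, chromosome 5, 177133025 to 177300215, plus strand), which adds dimethylation at lysine 36 of histone H3, had 92.5, 96 and 95.7 CPM in shCK5 against 311, 304 and 297 CPM in shControl (log2 fold change -1.68, SE 0.0286; edgeR adjusted p = 2.06e-25). SETD2 (chromosome 3, 47016429 to 47163967, minus strand), which completes trimethylation of the same residue, went the other way, with 153 ± 2.09 CPM in shCK5 against 89.8 ± 1.54 CPM in shControl (log2 fold change 0.77, SE 0.0287; edgeR adjusted p = 3.21e-18). NSD1 and SETD2 thus stood on opposite sides. Further lysine 36 methyltransferase genes, outside the list and named after their values were seen, also differed in direction. NSD2 rose to 466 ± 3.86 CPM in shCK5 against 215 ± 3.63 CPM in shControl (log2 fold change 1.12, SE 0.0258; edgeR adjusted p = 1.26e-22), and NSD3 and ASH1L fell (-0.45 and -0.29). DOT1L (ENSG00000104885.17, chromosome 19, 2164149 to 2232578, plus strand), the methyltransferase of lysine 79, had 131, 134 and 131 CPM in shCK5 against 59.3, 55.2 and 55.8 CPM in shControl (log2 fold change 1.22, SE 0.0324; edgeR adjusted p = 2.34e-21). The lysine 4 methyltransferases KMT2A, KMT2B and KMT2C had log2 fold changes of -0.26, -0.12 and 0.24. KMT2D had 218, 216 and 215 CPM in shCK5 and 231, 199 and 209 CPM in shControl, with overlapping groups (log2 fold change 0.02, SE 0.0364; edgeR adjusted p = 0.593), but it passed as higher without shControl replicate 1 (0.09) and as lower under library size scaling (-0.12). Summed per length, the 4 KMT2 transcripts came to 33.7 ± 0.107 RPKM in shCK5 and 34.6 ± 1.71 RPKM in shControl.

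Of the H3K9 methyltransferase genes, SUV39H1, SUV39H2 and EHMT1 rose, and EHMT2 and SETDB1 fell. SUV39H1 (ENSG00000101945.16, chromosome X, 48695554 to 48709012, plus strand), a writer of heterochromatic trimethylation, was the least abundant member, with 64, 58 and 37 counts in shCK5 and 28, 16 and 22 counts in shControl. These are 0.806, 0.761 and 0.512 CPM against 0.376, 0.201 and 0.307 CPM, a log2 fold change of 1.24 whose SE of 0.331 was the largest of the list (edgeR adjusted p = 0.00142). Its paralog SUV39H2, which was more abundant, rose as well, with 12.0 ± 0.961 CPM in shCK5 against 7.11 ± 0.314 CPM in shControl (log2 fold change 0.76, SE 0.0762). EHMT1 and EHMT2, which form the main enzyme of lysine 9 dimethylation as a heterodimer, moved apart. EHMT1 averaged 82.5 ± 2.01 CPM in shCK5 and 60.6 ± 1.72 CPM in shControl (log2 fold change 0.44, SE 0.0335), and EHMT2 averaged 116 ± 2.34 and 143 ± 0.726 CPM (log2 fold change -0.31, SE 0.0281). SETDB1, a silencer of transposable elements, had a log2 fold change of -0.27.

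Of 8 histone demethylase genes, 6 fell and 2 rose, against 41.7% lower and 40.9% higher of all genes tested. KDM2B, a listed demethylase gene placed with Polycomb repressive complex 1 above, fell too. KDM6B (ENSG00000132510.10, chromosome 17, 7839904 to 7854796, plus strand), which removes lysine 27 methylation, had 24.0, 24.1 and 22.8 CPM in shCK5 against 60.04, 55.9 and 57.5 CPM in shControl (log2 fold change -1.29, SE 0.0413; edgeR adjusted p = 1.2e-19). The other lysine 27 demethylase gene KDM6A, outside the list and named after its values were seen, rose to 42.6 ± 0.568 CPM in shCK5 against 21.8 ± 1.12 CPM in shControl (log2 fold change 0.97, SE 0.0444; edgeR adjusted p = 2.44e-16). KDM5B (ENSG00000117139.17, chromosome 1, 202724495 to 202809470, minus strand), a lysine 4 demethylase, had 61.5, 61.4 and 62.0 CPM against 129, 127 and 125 CPM (log2 fold change -1.04, SE 0.0298; edgeR adjusted p = 1.05e-20), while its paralog KDM5A had a log2 fold change of -0.26. The KDM4 genes, whose products act on lysines 9 and 36, did not move together. KDM4B (ENSG00000127663.14, chromosome 19, 4969113 to 5153595, plus strand) had 89.3, 85.8 and 88.0 CPM in shCK5 against 41.8, 38.95 and 42.4 CPM in shControl (log2 fold change 1.10, SE 0.0363; edgeR adjusted p = 2.36e-19). KDM4A averaged 29.9 ± 1.57 and 53.0 ± 1.58 CPM (log2 fold change -0.83, SE 0.0423), and KDM4C had a log2 fold change of -0.60. Per length, KDM4B lay below KDM4A in shControl, at 2.79 ± 0.123 against 10.3 ± 0.306 RPKM. In shCK5 it was close to KDM4A, at 5.96 ± 0.118 against 5.79 ± 0.304 RPKM. This order depends on the pooled exon lengths, 14716 bases for KDM4B and 5172 for KDM4A. In CPM, KDM4B lay above KDM4A in shCK5, at 85.8 to 89.3 against a mean of 29.9 CPM. In shControl it lay below, at 38.95 to 42.4 against a mean of 53.0 CPM. KDM3A, a lysine 9 demethylase, rose by 0.61 on the log2 scale, and KDM1A, a flavin-dependent lysine 4 demethylase, fell by 0.52. Other demethylase genes outside the list, named after their values were seen, went in both directions. KDM5C, PHF8, PHF2 and JMJD1C rose (0.90, 0.91, 0.80 and 0.29), and KDM1B and KDM7A fell (-1.44 and -1.57). KDM2A, KDM3B and KDM4D did not pass.

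Among 7 histone deacetylase genes, 4 fell and 3 rose, against 41.7% lower and 40.9% higher of all genes tested. Of the 7, 1 differed by at least 2-fold (14.3%), against 44.0% of all genes. HDAC9 (ENSG00000048052.21, chromosome 7, 18086949 to 19002416, plus strand), a class IIa deacetylase that binds MEF2 factors, had 50.9, 53.1 and 56.0 CPM in shCK5 against 19.3, 19.0 and 21.3 CPM in shControl (log2 fold change 1.43, SE 0.0478; edgeR adjusted p = 3.13e-19). The class IIa genes HDAC4 and HDAC5 had log2 fold changes of -0.43 and -0.52, and HDAC7 had 0.14, a call that was lost under library size scaling (0.00, edgeR adjusted p = 0.931) and with upper-quartile factors (0.04). The class IIa sum per length was 17.8 ± 0.256 RPKM in shCK5 and 17.6 ± 0.326 RPKM in shControl, while the share of HDAC9 in it was 17.8% ± 0.728 and 6.70% ± 0.335. The composition of the class differed between the groups by more than its summed level. Of the class I genes, HDAC2 fell to 114 ± 5.92 CPM against 203 ± 6.80 CPM (log2 fold change -0.83, SE 0.0341). Its partner in corepressor complexes HDAC1 fell to 115 ± 2.54 CPM against 158 ± 2.91 CPM (-0.45, SE 0.0288). HDAC3 rose to 42.8 ± 0.238 CPM against 34.8 ± 2.10 CPM (0.30, SE 0.0429). Other deacetylase genes outside the list, named after their values were seen, went in both directions. HDAC6, SIRT2, SIRT3 and SIRT6 rose (0.88, 0.57, 0.22 and 1.14). HDAC8, HDAC11, SIRT1 and SIRT7 fell (-0.24, -0.46, -0.30 and -0.11), and HDAC10 did not pass.

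**Figure D2:**
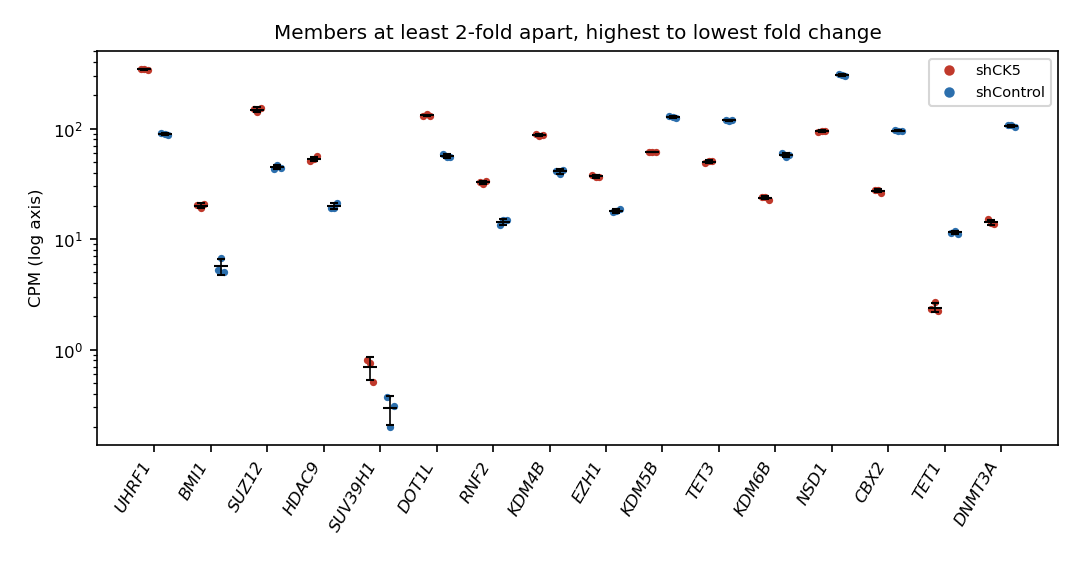
CPM on a log axis of the 16 members that passed the test with at least a 2-fold difference, with each shCK5 library in red left of each shControl library in blue, and black bars for the mean and SD of 3 libraries. The groups are separate for each gene, and the bars are widest for SUV39H1, which lies below 1 CPM.

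The paired acetyltransferases and the paired SWI/SNF ATPases also moved apart. EP300 averaged 63.5 ± 2.72 CPM in shCK5 and 118 ± 2.64 CPM in shControl (log2 fold change -0.89, SE 0.0336; edgeR adjusted p = 4.05e-18), and its close paralog CREBBP averaged 164 ± 0.849 and 140 ± 6.36 CPM (log2 fold change 0.22, SE 0.0308). Per length, CREBBP made up 67.6% ± 1.05 of their sum in shCK5 and 49.1% ± 0.793 in shControl. SMARCA4, the major ATPase, averaged 353 ± 1.97 and 472 ± 8.06 CPM (log2 fold change -0.42, SE 0.0252), and its alternative SMARCA2 averaged 71.5 ± 1.21 and 52.3 ± 0.935 CPM (log2 fold change 0.45, SE 0.0333). SMARCA2 made up 14.6% ± 0.278 of the ATPase sum per length in shCK5 and 8.60% ± 0.185 in shControl. ARID1A, a DNA-binding subunit often mutated in cancer, had a log2 fold change of -0.33.

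Ratios between paralogs within a library do not depend on library scaling, and 20 pairs were compared. In 19 of 20 the ratios of the groups did not overlap, with a two-sided exact permutation p of 0.1 (0.105 after Benjamini-Hochberg adjustment over the pairs), which is the smallest that 3 libraries against 3 can give. In 8 pairs the ratio differed by at least 2-fold. Ratios of other gene pairs were not computed as a background. Of all genes tested singly, 84.2% had groups that did not overlap, and 44.0% were called with at least a 2-fold difference. The counts of pairs therefore do not show a trait particular to paralogs. The log2 ratio of DNMT3B to DNMT3A, per length, was 1.75 (SD 0.116) in shCK5 and -0.46 (SD 0.0484) in shControl, a difference of 2.22 (SE 0.0727) and the widest of the 20. CBX2 to CBX7 followed with 1.45 and 3.41 (difference -1.96, SE 0.0558), and KDM4A to KDM4B with -0.04 and 1.88 (difference -1.92, SE 0.0618). HDAC9 to HDAC4, KDM4C to KDM4B, BMI1 to PCGF2, RNF2 to RING1 and EP300 to CREBBP differed by 1.85, -1.70, 1.65, 1.23 and -1.12. The ratio of EZH2 to EZH1 was 2.74 in shCK5 and 3.30 in shControl (difference -0.56, SE 0.0370). The pair whose groups overlapped was SUV39H1 to SUV39H2, with a difference of 0.48 (SE 0.326, exact permutation p = 0.2), which does not show that the genes moved alike.

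**Figure D3:**
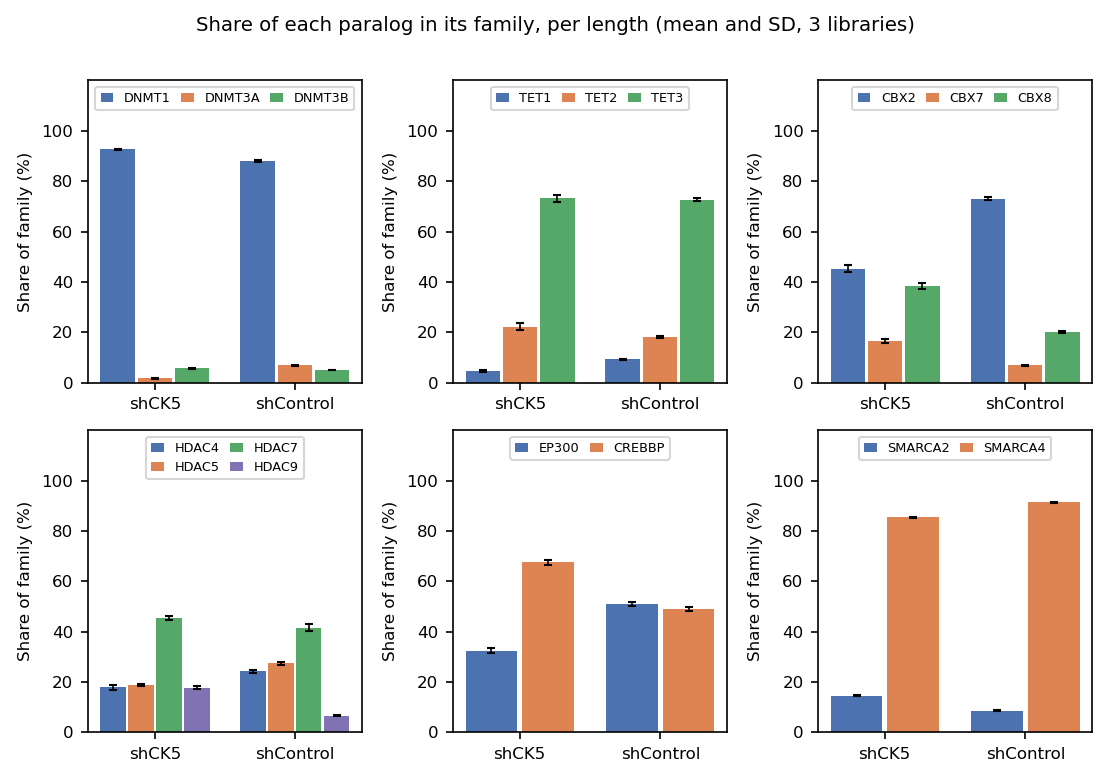
Share of each paralog in the summed level of its family per exon length, in percent, for shCK5 at the left and shControl at the right of each panel; bars are means and error bars the SD of 3 libraries. CREBBP makes up 67.6% in shCK5 and 49.1% in shControl, while TET3 makes up 73.2% and 72.6%.

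Transcripts of DNMT1, UHRF1 and EZH2 are known to follow the cell cycle, and cell cycle genes moved in the same libraries. Of 20 cell cycle genes, 16 rose and 4 fell, against 40.9% higher and 41.7% lower of all genes tested. Of the 9572 genes with a mean of at least 10 CPM, 5018 rose and 3754 fell. The median log2 fold change of the 20 cell cycle genes was 0.54. It was -0.02 over all genes and 0.15 over genes with a mean of at least 10 CPM. The proliferation marker MKI67 averaged 1462 ± 19.0 CPM in shCK5 and 622 ± 15.2 CPM in shControl (log2 fold change 1.23, SE 0.0258), and FOXM1, a transcription factor of mitotic genes, rose by 1.16. The cell cycle genes that fell were PCNA, MCM6, PLK1 and TYMS, the last with 62.0 ± 1.61 CPM against 148 ± 4.76 CPM. UHRF1 and EZH2 thus had the sign of most of these genes and DNMT1 the opposite sign. The part of the cell cycle in these values was not tested.

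Other chromatin genes, in a wider list of 112 names that shares no member with the 51, also moved in both directions. Of these, 110 were tested; SETD8 is an older name of the listed KMT5A, and SMARCC2 had no count in any library. Among the 110 genes 48 rose, 47 fell and 15 did not pass, or 86.4% called against 82.7% of all genes, with a median log2 fold change of 0.00. Of all genes with a mean of at least 10 CPM, 91.6% were called, with a median of 0.15. Under library size scaling 43 rose and 59 fell, and with upper-quartile factors 44 rose and 56 fell. The 4 highest were KAT2B, PCGF5, PHF19 and PCGF6. KAT2B, which encodes the acetyltransferase PCAF, had 51.1, 50.4 and 52.9 CPM in shCK5 against 1.80, 2.06 and 2.37 CPM in shControl (log2 fold change 4.63, SE 0.0675; edgeR adjusted p = 8.74e-27). This was a wider difference than that of any of the 51 members. PCGF5 and PCGF6, RING-finger partners in variant forms of Polycomb repressive complex 1, averaged 96.1 ± 2.16 and 33.8 ± 0.438 CPM in shCK5 against 23.0 ± 1.2 and 13.4 ± 0.787 CPM in shControl. PHF19, an accessory subunit of Polycomb repressive complex 2, averaged 198 ± 2.65 and 64.9 ± 1.63 CPM (log2 fold change 1.61, SE 0.0297), a rise close in size to that of SUZ12.

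The 4 lowest of the wider list were RCOR2, DNMT3L, KMT5B and CBX5. RCOR2, a corepressor that binds KDM1A, averaged 0.463 ± 0.102 CPM in shCK5 and 6.42 ± 0.334 CPM in shControl (log2 fold change -3.78, SE 0.151; edgeR adjusted p = 1.25e-17). KMT5B, a lysine 20 methyltransferase of histone H4, averaged 33.8 ± 1.86 and 121 ± 3.49 CPM (log2 fold change -1.84, SE 0.0380). CBX5, which encodes the heterochromatin protein HP1 alpha, averaged 90.6 ± 4.63 and 308 ± 10.6 CPM (log2 fold change -1.77, SE 0.0342). CBX5 binds the lysine 9 mark, and of the 5 writers of that mark in the list 3 rose and 2 fell.

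The direction of the members was also that of many of their chromosomal neighbours. For each member the median log2 fold change was taken over the tested genes within 1 Mb, which numbered 2 to 64. In 39 of 51 members (76.5%) this median had the member's own sign, against 63.6% of 16095 tested genes; members that lie near each other share neighbours, so the points are not independent. On chromosome 19, UHRF1 and KDM4B, which adjoin each other, and DOT1L rose among neighbours with medians of 0.44, 0.55 and 0.62. DNMT1 and SMARCA4, farther along the same chromosome, fell among neighbours with medians of -0.72 and -0.78, of which 31 of 49 and 38 of 53 were called lower. The neighbours of NSD1 on chromosome 5 and of CBX2 on chromosome 17 had medians of -0.64 and -0.96. The part of the neighbourhood in these values was not tested. Other members departed from their surroundings. DNMT3A lay 3.20 below the median of its 17 neighbours (0.31), TET1 2.13 below a median of -0.13, KDM6B 1.61 below 0.32 and TET3 1.59 below 0.34.

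**Figure D4:**
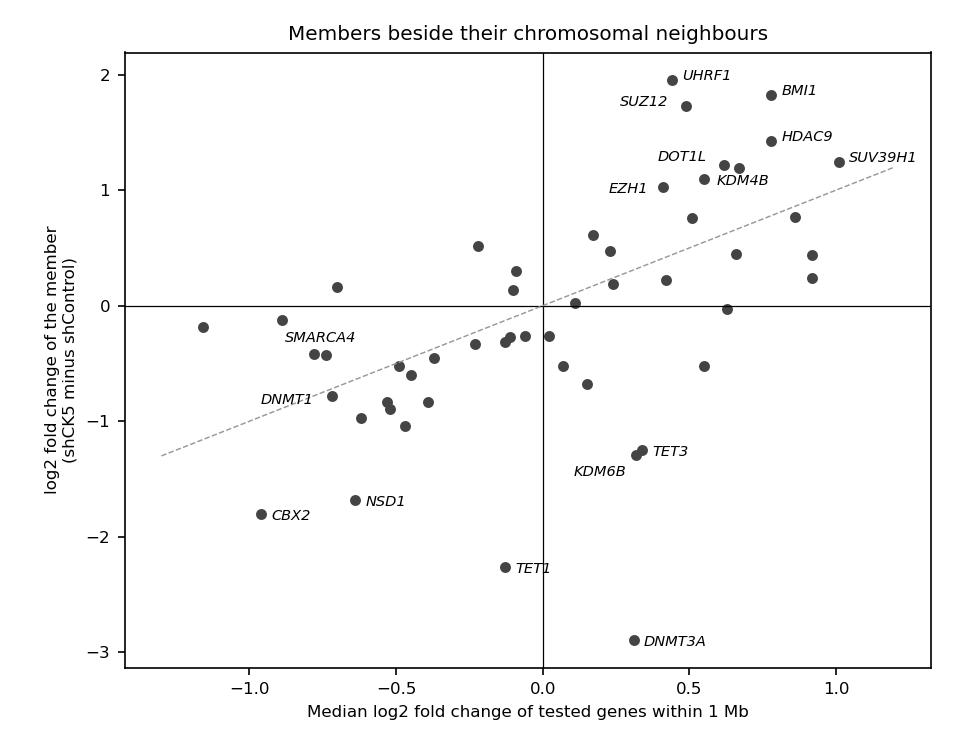
Log2 fold change of each of the 51 members (vertical axis, shCK5 minus shControl) against the median log2 fold change of the tested genes within 1 Mb (horizontal axis), with equality as a dashed line. Most members lie in the lower left or upper right, and DNMT3A, TET3 and KDM6B lie below neighbours with positive medians.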

How the data were processed

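RNA-seq libraries of 3 shCK5 and 3 shControl samples were used, with groups and replicate numbers from the sample titles. The table deposited by the authors holds unnormalized whole-number counts for each gene name; per the submitters' processing notes, cutadapt, STAR, SAMtools and Cufflinks and the build GRCh38 were used, and per the file headers the counts came from sorted alignments. Neither counter, strand setting nor annotation is given in the sources used here. The authors' counts were analysed with edgeR 4.0.16 in R 4.3.3: filterByExpr kept 19567 genes, TMM factors lay between 0.95 and 1.06, and the quasi-likelihood test (threshold 0.05) had no covariate. The SE is that of the fit. Levels are CPM; RPKM divides them by union exon length in GENCODE v29 on GRCh38, which may not be the authors' annotation. In that annotation 10 of 51 members share over 3% of their exon length with another gene, BMI1, PCGF2, SETDB1 and DOT1L most. Of all counts above 20, 64.0% were even; the reason was not tested. Named were all members at least 2-fold apart, the highest and lowest of each role, and the 4 highest and 4 lowest of the wider list. The members and lists were chosen with earlier results of these data known. Alternatives were other size factors, filters and tools (DESeq2 1.42.0, limma 3.58.1), a replicate block and leaving out each library. Code was checked on simulated data. Chi-square per degree of freedom within groups was at least 4.06, so no libraries were merged. The leukocyte marker list is not reported whole here.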

Additional observations from a re-analysis of the deposited data

How the results depend on the processing

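Over 15 alternatives, 46 of 51 members kept direction and call wherever a value was had; the exceptions were CBX7, PCGF2, HDAC7, RING1 and KMT2D. KMT2D, which had not passed, turned to -0.12 on the log2 scale under library size scaling, where it passed as lower, -0.08 with upper-quartile factors, -0.02 with a filter of 1 CPM in 3 libraries and -0.03 without shControl replicate 2; leaving out 1 library gave -0.03 to 0.09, the last passing as higher. RING1 passed as lower under library size scaling (-0.17) and with upper-quartile factors (-0.13). Requiring a 2-fold difference left 9 higher and 7 lower members, and 3827 higher and 4776 lower genes of all. These 2-fold counts are those of the main fit and depend on the scaling. Under library size scaling EZH1 dropped below 2-fold (0.89) and TET2 passed it (-1.11). Over the alternatives, the lowest value was 0.96 for KDM4B and -1.03 for EP300. Leaving out 1 library gave 21 to 23 higher and 27 lower members. Same-numbered libraries share only a number (correlations of their deviations -0.0105 to 5.75e-05), and with the replicate block 22 members were higher and 27 lower, as without it. SUV39H1, at 16 to 64 counts per library, is limited by depth, with log2 fold changes of 1.02 to 1.46 over the alternatives.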
